A study of Mus musculus with 12 samples.

Results

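The 38 genes described here are the mouse genes of sterol and fatty acid synthesis, chosen by symbol from textbook membership of the 2 pathways, out of 54532 genes listed. They comprise 5 regulators of the SREBP transcription factors, 7 genes of the mevalonate arm, 11 of the squalene and sterol arm, 1 sterol transport gene, 7 of fatty acid synthesis and its supply, and 7 of desaturation and elongation. Their RNA was measured in pancreatic islets of male C57BL/6 mice in 12 libraries, 3 for each of 4 groups. STD WT were wild type mice kept on a standard diet with 6.2% fat, and STD KO were mice lacking Sirt3 selectively in beta cells, on the same diet. HFD WT and HFD KO were the same genotypes on a diet with 60% of its calories from fat for 36 weeks, after 4 weeks of standard diet in HFD WT and 6, 5 and 6 weeks in HFD KO libraries 1, 2 and 3. Genotype and these earlier weeks therefore differ together under the high fat diet and cannot be told apart. The age is labelled 40 weeks for all 12, and in HFD KO the feeding periods add up to more than that. The Cre driver, the deleted exons, and whether the wild type mice were littermates or each library a separate animal is not given in the sources used here. The p-values thus describe spread among libraries, which may be technical.

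As background, cholesterol and fatty acid synthesis are transcribed under the SREBP factors, which are made as precursors in the endoplasmic reticulum membrane. When membrane sterol is low, SCAP escorts the precursor to the Golgi, where proteases release the active factor; when sterol is high, INSIG proteins hold SCAP back. SREBP-2, from Srebf2, is best known for sterol genes and SREBP-1, from Srebf1, for fatty acid genes, and islet beta cells make these lipids for granule and plasma membranes.

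Libraries held 16037709 to 20864920 counts, of which the 38 genes took 0.171% to 0.350%, and insulin genes Ins1 and Ins2 19.7% to 33.5%. Levels are given as CPM, read counts divided by the TMM-scaled library size. Sirt3, the targeted gene, was at 9.04, 11.3 and 11.5 CPM in STD WT and 6.59, 5.97 and 5.86 CPM in STD KO, with no overlap. In HFD WT it was at 11.4, 9.30 and 11.8 CPM and in HFD KO at 7.85, 11.5 and 6.21 CPM, so the library labelled HFD KO 2 lay inside the wild type range. Neither difference passed the test (under STD, log2 fold change -0.79 ± 0.22 SE, adjusted p = 0.156; under HFD, log2 fold change -0.35 ± 0.22 SE, adjusted p = 0.363), and results are therefore also given without HFD KO 2. Where the deleted part of Sirt3 lies is not given, so reads outside it may remain. The summed 9 beta cell markers, mostly Ins1 and Ins2, overlapped between genotypes under both diets. In HFD KO against HFD WT, 2 of the 9, Slc30a8 and Ucn3, fell past the threshold. There 4 of the 9 (Slc30a8, Ucn3, Mafa and Slc2a2) lay lower without overlap and 1 (G6pc2) higher, against 24.5% of all genes without overlap. The median log2 fold change of the 9 was -0.44, against -0.41 for the 37 tested members and -0.0024 over all genes. The 6 macrophage markers summed to 143.4 to 226 CPM in HFD WT and 293 to 362 CPM in HFD KO, without overlap, with 1 of the 6 (C1qb) past the threshold. The 7 adipocyte markers summed to 15.2 to 26.4 CPM in HFD WT and 31.2 to 40.8 CPM in HFD KO, mostly Fabp4, while Adipoq was at 0 to 0.119 CPM in the 6 high fat libraries. The acinar sum was 15361 to 24940 CPM in HFD WT and 11641 to 15819 CPM in HFD KO, overlapping, and no listed marker was at 0 in all libraries. The part of these other cells in the results was not tested, and in bulk islets fewer cells of a type and less RNA per cell cannot be told apart.

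Compared per gene length, on the deposited FPKM scale averaged over 12 libraries, Acly was the most abundant of the 38 at 479 FPKM. It encodes ATP citrate lyase, which makes cytosolic acetyl-CoA. Elovl5, a fatty acid elongase, followed at 119 FPKM and Insig1 at 80.1 FPKM. At the other end, Acacb, the acetyl-CoA carboxylase of the mitochondrial membrane, was at 0.694 FPKM. Fdps, farnesyl diphosphate synthase, was at 0.248 FPKM with 64 counts over all 12 libraries, and was the 1 member below the count filter. Of its 50-base transcript stretches, 26.2% also occur in other genes. The other 37 were tested among 16076 genes. The gene lengths implied by the deposited FPKM were far below the merged annotated exons for some members, as for Scap (1033 against 7443 bases). For others they were near them, as for Scd2 (5453 against 5464 bases). The order of genes on the FPKM scale depends on those lengths.

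Sequence upstream of the start is shown for 3 genes that fell (Srebf2, Insig1 and Hmgcs1) and 2 that rose (Acss2 and Ebp) in high fat knockout islets, so that both directions of change are represented. Each run is the 250 bases before the RefSeq transcript start on build GRCm38.p6, 5′ to 3′ on the gene's strand. Capitals mark TCACNCCA, the core of a sterol regulatory element (the binding site of SREBPs), with or without a further C; CACGTG, an E-box; and CCAAT, read as ATTGG on the other strand.
Srebf2: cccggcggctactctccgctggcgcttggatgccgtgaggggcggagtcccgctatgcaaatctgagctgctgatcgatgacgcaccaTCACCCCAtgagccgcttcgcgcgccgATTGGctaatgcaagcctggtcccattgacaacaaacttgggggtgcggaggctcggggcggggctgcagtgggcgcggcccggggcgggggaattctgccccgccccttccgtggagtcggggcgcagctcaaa
Insig1: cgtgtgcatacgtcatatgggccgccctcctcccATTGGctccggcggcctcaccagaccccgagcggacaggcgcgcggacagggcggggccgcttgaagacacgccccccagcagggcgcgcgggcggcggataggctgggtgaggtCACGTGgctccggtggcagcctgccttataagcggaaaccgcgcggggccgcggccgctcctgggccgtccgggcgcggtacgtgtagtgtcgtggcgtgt
Hmgcs1: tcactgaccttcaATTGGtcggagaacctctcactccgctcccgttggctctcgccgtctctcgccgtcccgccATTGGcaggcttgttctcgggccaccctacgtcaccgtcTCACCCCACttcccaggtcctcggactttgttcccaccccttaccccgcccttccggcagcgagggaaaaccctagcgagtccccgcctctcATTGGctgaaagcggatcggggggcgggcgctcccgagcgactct
Acss2: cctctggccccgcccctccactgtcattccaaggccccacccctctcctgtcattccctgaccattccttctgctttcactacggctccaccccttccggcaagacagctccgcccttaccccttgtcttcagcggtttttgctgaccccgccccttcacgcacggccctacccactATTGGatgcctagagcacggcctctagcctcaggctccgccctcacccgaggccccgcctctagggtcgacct
Ebp: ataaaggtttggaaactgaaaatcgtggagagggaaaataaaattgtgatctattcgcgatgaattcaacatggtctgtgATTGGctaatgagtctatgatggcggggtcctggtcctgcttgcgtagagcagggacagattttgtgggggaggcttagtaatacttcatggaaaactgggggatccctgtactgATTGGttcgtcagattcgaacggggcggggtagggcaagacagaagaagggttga
The positions are chr15:82147019-82147268 on the plus strand for Srebf2, chr5:28071162-28071411 plus for Insig1, chr13:119690101-119690350 plus for Hmgcs1, chr2:155517793-155518042 plus for Acss2 and chrX:8193513-8193762 minus for Ebp. RefSeq windows of 300 bases, 250 before and 50 after the start, matched 31 of the 38 genes in 41 windows. On either strand, TCACNCCAC occurred in 1 member window (Hmgcs1), against 1.24% of all 32851 windows. The shorter TCACNCCA, which contains it and was added after the windows had been read, occurred in 3 (Hmgcs1, Msmo1 and Srebf2), against 4.36% of all windows. CACGTG was present in 17.1% of member windows, in 6 genes (Dhcr7, Elovl5, Hsd17b7, Insig1, Sc5d and Scap), against 7.15% of all windows. Overlapping windows were not merged. The Scap windows overlap and hold the same CACGTG, which therefore counts more than once in the member share. CCAAT, the box bound by NF-Y, was present in 65.9% of member windows and 26 genes, against 37.4% of all windows. The 2 genes that rose and are shown carry a CCAAT box, as do the 3 that fell.

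Loss of Sirt3 was compared within each diet. In high fat knockout islets 8 of the 37 tested members fell and 3 rose past the threshold (edgeR's quasi-likelihood test, Benjamini-Hochberg adjusted p under 0.05 over all genes), which is 29.7%, against 7.4% of all genes tested (3.5% lower and 3.9% higher). Those that fell were Srebf1, Srebf2, Insig1, Hmgcs1, Stard4, Acaca, Scd2 and Elovl5, and those that rose Ebp, Acss2 and Me1. The median log2 fold change of the 37 was -0.41, against -0.0024 over all genes, and 28 of the 37 were negative. In 15 members all HFD KO libraries lay below all HFD WT libraries, and in 4 above (Ebp, Dhcr7, Acss2 and Me1), against 24.5% of all genes without overlap (13.3% lower and 11.2% higher). DESeq2 called 18 of the 37, of which 14 were lower, against 12.6% of all genes. It added Scap, Fdft1, Cyp51, Acly, Fasn and Elovl6 as lower and Dhcr7 as higher. Below, passing refers to edgeR's test unless another is named. Without HFD KO 2, 4 members fell (Srebf2, Insig1, Stard4 and Scd2) and 2 rose (Ebp and Acss2), against 4.62% of all genes in that fit (1.69% lower and 2.93% higher), with a median of -0.33. Across all 16076 genes the high fat fold change ran lower in longer genes (Spearman's rho -0.307, a description), against -0.047 under the standard diet. With offsets corrected for length no member call was lost and Mvk and Idi1 were added. The trend and these offsets used the gene lengths implied by the deposited FPKM, which for some members are far below the annotated exons.

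Under the standard diet the same comparison gave 2 members that rose, Acss2 and Dhcr7, and 0 that fell, among 37, against 1.71% of all genes tested (1.34% higher and 0.367% lower). Of the 37, 6 had an unadjusted p under 0.05, and DESeq2 called 3, Scd2 being the added one. The median log2 fold change was 0.02, and 8 members did not overlap between genotypes (Insig2, Sqle, Cyp51, Ebp, Dhcr7, Acss2 and Fads1 higher, Scd2 lower), against 14.8% of all genes (7.52% higher and 7.32% lower). The 2 comparisons share no library, but both come from 1 fit over all 12 libraries with a shared estimate of spread. Leaving out a standard diet library can thus change a high fat call, as for Me1 and Acaca without STD WT 2. In the plot of fold changes, the high fat point lies left of the standard diet point for 30 of the 37 genes.

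**Figure D1:**
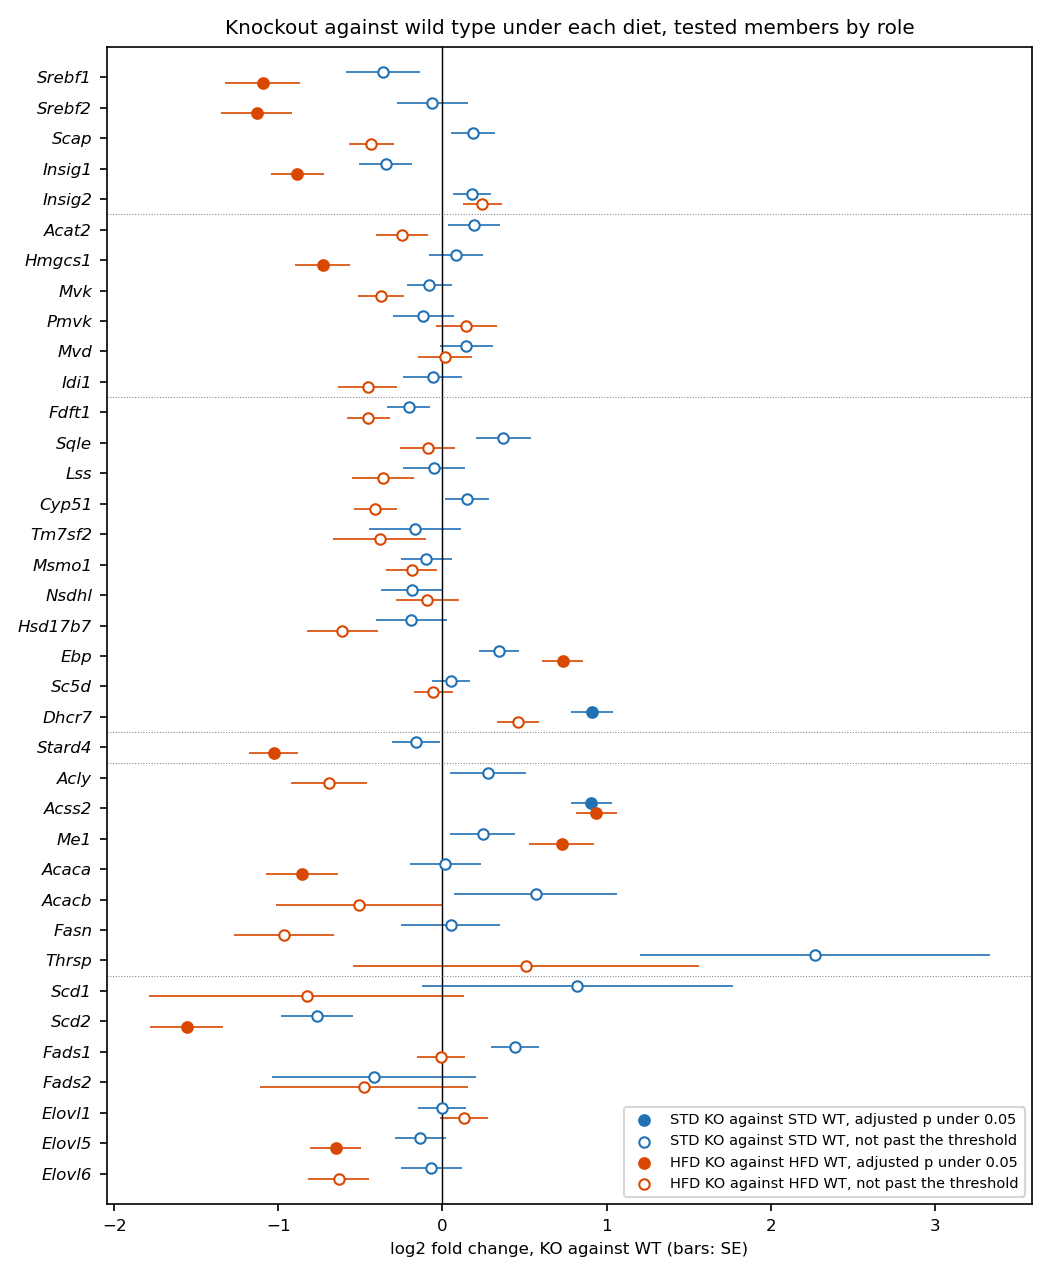
Log2 fold change of knockout against wild type (x axis) for each of the 37 tested genes (y axis, by role) under the standard and the high fat diet; bars are ± 1 standard error, and filled points passed the threshold. Under the high fat diet 28 of 37 lie below 0, Scd2 lowest at -1.56 and Acss2 highest at 0.94.

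Of the 5 regulators, 3 fell in HFD KO (Srebf1, Srebf2 and Insig1) and 0 rose, with a median log2 fold change of -0.88. Srebf1, which encodes SREBP-1, was at 101, 123 and 124 CPM in HFD WT and 44.1, 46.5 and 72.2 CPM in HFD KO (log2 fold change -1.10 ± 0.23 SE, adjusted p = 0.0136). On the standard diet it was at 139, 91.8 and 81.6 CPM in wild type and 87.3, 75.5 and 80.2 CPM in knockout (log2 fold change -0.36 ± 0.22 SE, adjusted p = 0.835). The high fat groups did not overlap, the standard diet groups did, and the high fat call rested on single libraries, since it was lost without HFD KO 1 (adjusted p = 0.0779), HFD KO 2 (adjusted p = 0.0577) or HFD WT 3. Srebf2, which encodes SREBP-2 and is itself an SREBP target, was at 132, 181 and 170.4 CPM in HFD WT and 51.2, 74.2 and 95.1 CPM in HFD KO (log2 fold change -1.13 ± 0.22 SE, adjusted p = 0.00931). Its STD WT libraries were at 142, 119.8 and 118 CPM and its STD KO libraries at 124, 101 and 139 CPM (log2 fold change -0.06 ± 0.22 SE, adjusted p = 0.999). Every HFD KO library lay below the other 9, and the call held when any 1 library was left out, but not with only the 2 groups in the fit (adjusted p = 0.0644).

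Insig1, the sterol-responsive anchor that retains SCAP, was at 198, 161 and 188 CPM in HFD WT and 99.8, 91.3 and 105 CPM in HFD KO (log2 fold change -0.88 ± 0.16 SE, adjusted p = 0.00695). On the standard diet it was at 122, 178 and 160.1 CPM and 140.4, 113 and 109 CPM (log2 fold change -0.35 ± 0.16 SE, adjusted p = 0.598). Its high fat groups were far apart while its standard diet groups overlapped, and the high fat call held in all 12 fits that left out 1 library. Insig2, the second anchor, which is not known as an SREBP target in the way Insig1 is, was at 49.7, 40.2 and 45.4 CPM in HFD WT and 59.8, 49.3 and 51.0 CPM in HFD KO (log2 fold change 0.24 ± 0.12 SE, adjusted p = 0.23). Its standard diet values were 43.4, 40.2 and 44.2 CPM in wild type and 50.3, 45.7 and 48.8 CPM in knockout (log2 fold change 0.18 ± 0.12 SE, adjusted p = 0.858). Insig2 groups overlapped under the high fat diet and were separate under the standard diet, with knockout higher, and Insig2 did not pass the test under either. Scap, the sterol sensor and escort, was at 56.6, 54.8 and 58.3 CPM in HFD WT and 37.8, 37.4 and 50.2 CPM in HFD KO (log2 fold change -0.43 ± 0.14 SE, adjusted p = 0.0776), without overlap. With the replicate number as a block, Scap passed the threshold (log2 fold change -0.45, adjusted p = 0.0415). In the standard diet Scap was at 44.1, 40.6 and 43.0 CPM and 50.9, 41.8 and 52.6 CPM (log2 fold change 0.19 ± 0.14 SE, adjusted p = 0.917), overlapping.

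In the mevalonate arm, which builds isoprenoid units from acetyl-CoA, 1 of 6 tested genes fell in HFD KO and 0 rose (median log2 fold change -0.31). This was Hmgcs1, HMG-CoA synthase, at 39.8, 36.5 and 43.4 CPM in HFD WT and 21.4, 23.5 and 27.3 CPM in HFD KO (log2 fold change -0.73 ± 0.17 SE, adjusted p = 0.0221). Its standard diet values were 34.4, 39.2 and 30.1 CPM in wild type and 45.1, 30.7 and 34.1 CPM in knockout (log2 fold change 0.08 ± 0.16 SE, adjusted p = 0.999). The high fat groups were separate, but the call was lost without HFD KO 1 (adjusted p = 0.114), HFD KO 2 (adjusted p = 0.0699), HFD WT 1 or HFD WT 3, and 11.6% of its 50-base stretches occur in other genes. Mvk (mevalonate kinase, log2 fold change -0.38, adjusted p = 0.127) and Idi1 (isopentenyl diphosphate isomerase, log2 fold change -0.46, adjusted p = 0.147) did not pass. With the length-corrected offsets both did (adjusted p = 0.0395 and 0.0455). Acat2 (acetoacetyl-CoA thiolase, log2 fold change -0.25, adjusted p = 0.369), Pmvk (phosphomevalonate kinase, log2 fold change 0.15, adjusted p = 0.682) and Mvd (mevalonate diphosphate decarboxylase, log2 fold change 0.02, adjusted p = 0.969) did not pass either. Acat2 and Idi1 share 39.1% and 25.3% of their stretches with other genes, so their counts are uncertain. Under the standard diet 0 of the 6 passed (0 at an unadjusted p under 0.05, and 0 by DESeq2).

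In the squalene and sterol arm, which turns farnesyl units into cholesterol, 1 of 11 genes rose in HFD KO and 0 fell (median -0.19). Ebp, the sterol isomerase of the late pathway, was at 17.6, 19.5 and 18.7 CPM in HFD WT and 35.4, 29.8 and 27.6 CPM in HFD KO (log2 fold change 0.73 ± 0.12 SE, adjusted p = 0.00469). On the standard diet Ebp was at 19.9, 19.4 and 21.3 CPM and 26.9, 27.0 and 23.2 CPM (log2 fold change 0.34 ± 0.12 SE, adjusted p = 0.341). Knockout libraries lay above wild type libraries under both diets, and the high fat call held when any 1 library was left out, but not with only the 2 groups in the fit (adjusted p = 0.0511). Dhcr7, the reductase of the last step, was at 20.5, 21.4 and 23.4 CPM in STD WT and 43.9, 37.1 and 41.8 CPM in STD KO (log2 fold change 0.91 ± 0.13 SE, adjusted p = 0.00347), and this call held in all 12 such fits. In HFD WT it was at 24.4, 28.9 and 26.6 CPM and in HFD KO at 33.2, 34.5 and 42.1 CPM (log2 fold change 0.46 ± 0.13 SE, adjusted p = 0.0525). Dhcr7 groups did not overlap under either diet, and the high fat difference passed with the replicate block (adjusted p = 0.0354).

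Among the other 9 genes of that arm, Fdft1 (squalene synthase, log2 fold change -0.45, adjusted p = 0.0591), Cyp51 (lanosterol demethylase, log2 fold change -0.41, adjusted p = 0.0825) and Hsd17b7 (a 3-ketosteroid reductase, log2 fold change -0.61, adjusted p = 0.108) had non-overlapping lower HFD KO libraries. None of these 3 passed in edgeR. DESeq2 called Fdft1 (adjusted p = 0.0344) and Cyp51 (adjusted p = 0.0468). Cyp51 also passed with the replicate block (adjusted p = 0.0391), and 26.5% of the Fdft1 stretches are shared with other genes. The rest were Sqle (squalene epoxidase, log2 fold change -0.09, adjusted p = 0.795), Lss (lanosterol synthase, log2 fold change -0.36, adjusted p = 0.267), Tm7sf2 (a sterol reductase, log2 fold change -0.38, adjusted p = 0.437), Msmo1 (methylsterol monooxygenase, log2 fold change -0.19, adjusted p = 0.494), Nsdhl (a sterol dehydrogenase, log2 fold change -0.09, adjusted p = 0.812) and Sc5d (sterol desaturase, log2 fold change -0.06, adjusted p = 0.816). All of these overlapped between genotypes. Stard4, which carries sterol between membranes, was at 25.0, 32.7 and 29.5 CPM in HFD WT and 13.7, 13.8 and 15.2 CPM in HFD KO (log2 fold change -1.03 ± 0.15 SE, adjusted p = 0.0019). Its standard diet libraries were at 26.7, 27.1 and 28.4 CPM in wild type and 28.6, 20.0 and 24.9 CPM in knockout (log2 fold change -0.16 ± 0.15 SE, adjusted p = 0.992). The 3 HFD KO libraries were the lowest of all 12, and the call held when any 1 library was left out.

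In fatty acid synthesis and its supply, 2 of 7 genes rose and 1 fell in HFD KO (median -0.51). Acss2, which makes acetyl-CoA from acetate in cytosol and nucleus, was at 22.2, 22.0 and 23.1 CPM in HFD WT and 48.4, 36.1 and 44.4 CPM in HFD KO (log2 fold change 0.94 ± 0.12 SE, adjusted p = 0.00111). On the standard diet it was at 22.5, 22.5 and 22.9 CPM in wild type and 45.7, 43.6 and 38.1 CPM in knockout (log2 fold change 0.91 ± 0.12 SE, adjusted p = 0.00278). Wild type libraries spanned only 22.0 to 23.1 CPM over both diets and every knockout library lay above them. The interaction of genotype and diet was 0.03 ± 0.18 SE on the log2 scale (adjusted p = 0.965). Me1, the NADPH-producing malic enzyme, was at 20.5, 21.2 and 20.7 CPM in HFD WT and 37.3, 31.2 and 34.7 CPM in HFD KO (log2 fold change 0.73 ± 0.20 SE, adjusted p = 0.049). Its standard diet values were 35.8, 23.2 and 18.6 CPM and 33.5, 29.5 and 29.1 CPM (log2 fold change 0.25 ± 0.20 SE, adjusted p = 0.958), overlapping through STD WT 1, which was the highest of the wild type libraries. The Me1 call was lost in 9 of the 12 fits that left out 1 library (adjusted p = 0.177 without HFD KO 1, 0.0792 without HFD KO 2) and with the replicate block (adjusted p = 0.052), and 28.3% of its stretches are shared with other genes.

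Acaca, the acetyl-CoA carboxylase that commits carbon to fatty acids, was at 44.4, 37.9 and 44.4 CPM in HFD WT and 21.9, 18.8 and 29.3 CPM in HFD KO (log2 fold change -0.85 ± 0.22 SE, adjusted p = 0.0381). On the standard diet it was at 34.3, 35.2 and 27.9 CPM and 40.0, 22.6 and 36.1 CPM (log2 fold change 0.02 ± 0.22 SE, adjusted p = 0.999). The high fat groups did not overlap, but the call was lost in 5 of 12 fits that left out 1 library, those without HFD KO 1 (adjusted p = 0.154) and HFD KO 2 (adjusted p = 0.129) among them, and 30.4% of its stretches are shared. Fasn, fatty acid synthase, was at 114, 124 and 132 CPM in HFD WT and 54.2, 56.1 and 79.3 CPM in HFD KO (log2 fold change -0.96 ± 0.30 SE, adjusted p = 0.0795), without overlap and not past the threshold in edgeR (DESeq2 adjusted p = 0.0224). Acly was at 1707, 1255 and 1715 CPM in HFD WT and 848, 729.6 and 1317 CPM in HFD KO (log2 fold change -0.69 ± 0.23 SE, adjusted p = 0.0924), overlapping through HFD KO 3. Acly passed with the replicate block (adjusted p = 0.0186). Acacb (log2 fold change -0.51, adjusted p = 0.579) and Thrsp, a lipogenic nuclear protein (log2 fold change 0.51, adjusted p = 0.814), did not pass.

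Of the 7 genes of desaturation and elongation, 2 fell in HFD KO and 0 rose (median -0.63). Scd2, a stearoyl-CoA desaturase that makes monounsaturated fatty acids, was at 129, 135 and 143 CPM in HFD WT and 33.9, 37.0 and 66.9 CPM in HFD KO (log2 fold change -1.56 ± 0.22 SE, adjusted p = 0.00176). On the standard diet it was at 183, 159 and 142 CPM in wild type and 94.6, 89.1 and 101 CPM in knockout (log2 fold change -0.77 ± 0.22 SE, adjusted p = 0.162). Knockout libraries lay below wild type libraries under both diets, the high fat fall was the largest of the 37 members, and its call held when any 1 library was left out. Elovl5, an elongase of polyunsaturated fatty acids, was at 177, 131 and 175 CPM in HFD WT and 107, 85.0 and 116 CPM in HFD KO (log2 fold change -0.65 ± 0.16 SE, adjusted p = 0.0278). Standard diet values were 129.5, 141 and 144 CPM and 136, 112 and 129 CPM (log2 fold change -0.14 ± 0.16 SE, adjusted p = 0.999). The high fat groups were separate, and the call was lost without HFD WT 3 (adjusted p = 0.129), HFD KO 2 (adjusted p = 0.092), HFD WT 1 or HFD KO 1. Elovl6, which lengthens palmitate (log2 fold change -0.63, adjusted p = 0.0633), had non-overlapping groups and passed with the block (adjusted p = 0.0328). Fads1 (log2 fold change -0.01, adjusted p = 0.983) and Fads2 (log2 fold change -0.48, adjusted p = 0.694), the front-end desaturases, Elovl1 (log2 fold change 0.13, adjusted p = 0.636) and Scd1 (log2 fold change -0.83, adjusted p = 0.649) did not pass. Fads1 stood higher in all 3 STD KO libraries, at 67.1, 55.6 and 51.9 CPM against 45.3, 41.6 and 41.5 CPM in STD WT (log2 fold change 0.44 ± 0.15 SE, adjusted p = 0.262), which did not pass.

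**Figure D2:**
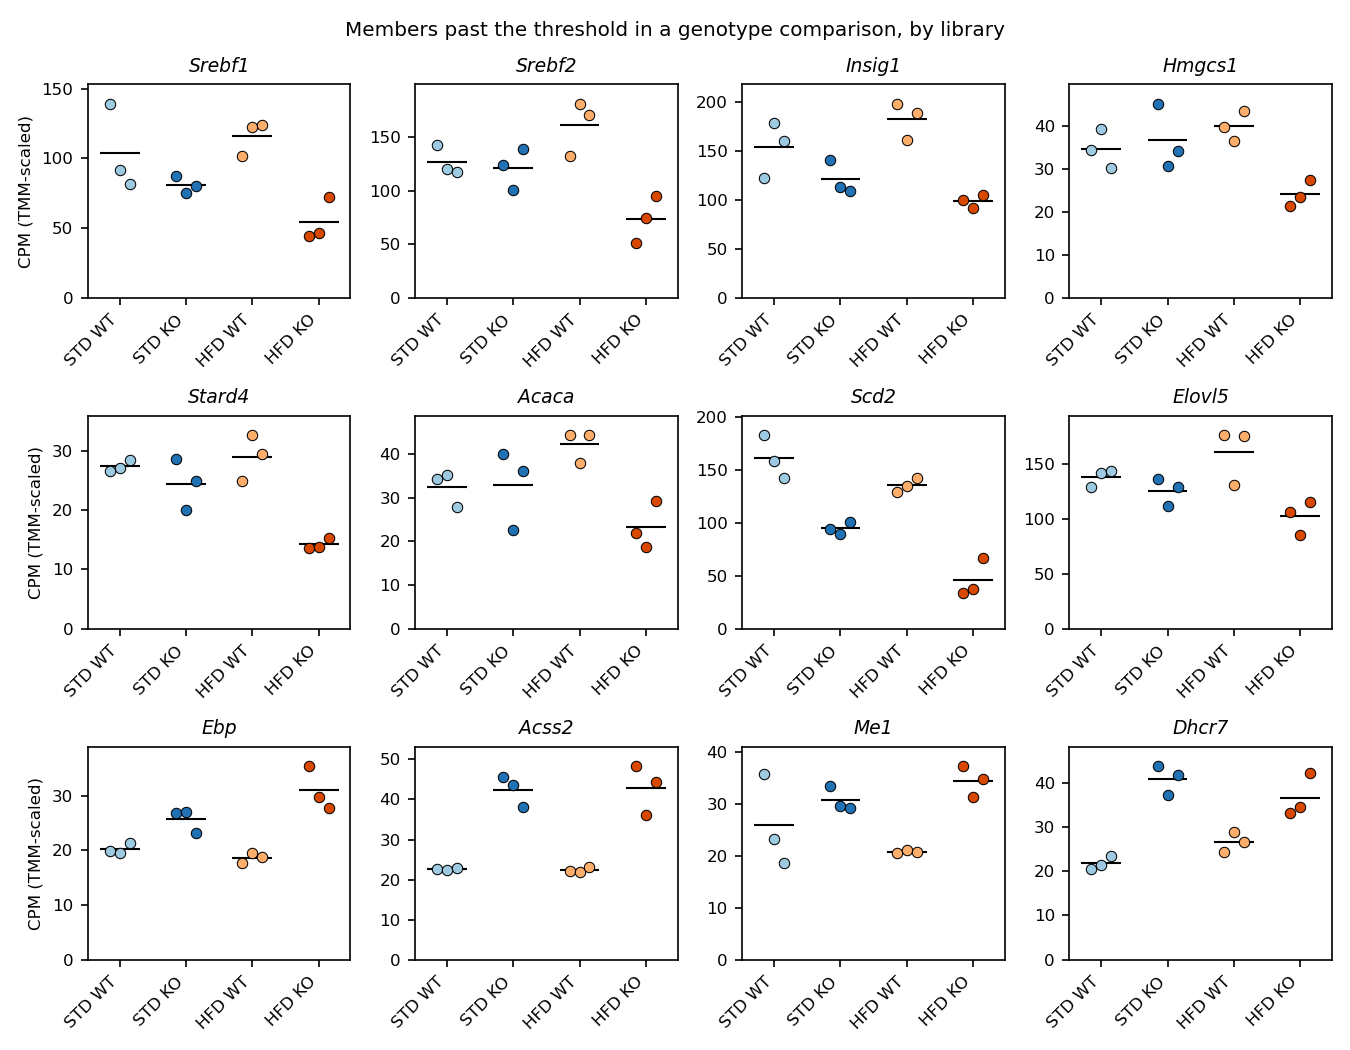
CPM in each library (points) with the group mean (line) for the 12 genes past the threshold in either genotype comparison; the y axes start at 0 and the x axis gives the 4 groups of 3 libraries. Under the high fat diet Srebf1, Srebf2, Insig1, Hmgcs1, Stard4, Acaca, Scd2 and Elovl5 lie lower in knockout, while Acss2, Dhcr7 and Ebp lie higher in knockout under both diets.

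Whether the genotype difference itself depended on diet was tested as an interaction. None of the 37 members passed (0 called; 14 at an unadjusted p under 0.05; DESeq2 called 0), as none of the 16076 genes did in edgeR (0% called; 1271 at an unadjusted p under 0.05; DESeq2 called 30), and the smallest adjusted p among members was 0.621. The interaction estimate was negative for 30 members, with a median of -0.45, against 0.01 over all genes. It was -1.07 ± 0.31 SE on the log2 scale (adjusted p = 0.621) for Srebf2, -0.87 ± 0.21 SE on the log2 scale (adjusted p = 0.621) for Stard4 and -0.54 ± 0.23 SE on the log2 scale (adjusted p = 0.621) for Insig1. A fall past the threshold under one diet and not the other is therefore not shown to differ between diets for any member.

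Diet alone moved 0 members past the threshold in wild type islets (4 at an unadjusted p under 0.05; DESeq2 called 0), as it did for 0% of all genes (762 at an unadjusted p under 0.05; DESeq2 called 38). The median log2 fold change was 0.08, and 6 members had all HFD WT libraries above all STD WT libraries (Acly, Fasn, Acaca, Cyp51, Dhcr7 and Scap), and 1 below (Fads1), against 9.59% of all genes without overlap (5.06% higher and 4.53% lower). Acly went from 935, 922 and 886 CPM in STD WT to 1707, 1255 and 1715 CPM in HFD WT (log2 fold change 0.77 ± 0.23 SE, adjusted p = 0.886). In knockout islets diet also moved 0 of the 37 (8 at an unadjusted p under 0.05; DESeq2 called 3), against 0.0435% of all genes (0.0311% higher and 0.0124% lower; DESeq2 called 113 genes). There the median was -0.26, with 1 member non-overlapping higher (Ebp) and 9 lower (Srebf1, Srebf2, Insig1, Hmgcs1, Fdft1, Cyp51, Stard4, Scd2 and Fads1), against 12.1% of all genes (5.91% higher and 6.23% lower). Stard4 (log2 fold change -0.78 ± 0.15 SE, adjusted p = 0.2) had the smallest adjusted p among members. These 2 diet comparisons share their groups with the genotype comparisons, so their values are not independent of those above.

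**Figure D3:**
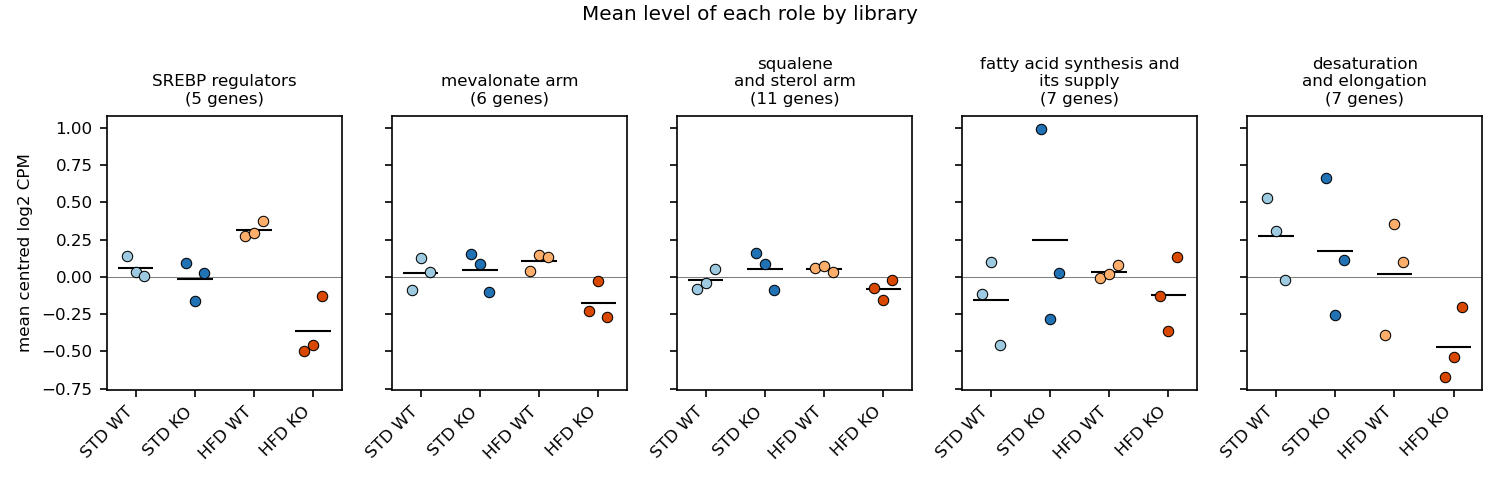
Mean log2 CPM of the tested genes of each role, each gene centred on its mean over 12 libraries (y axis), by group (x axis); points are libraries and lines group means. The regulators averaged 0.32 in HFD WT and -0.36 in HFD KO, and every HFD KO library lies below every HFD WT library there.

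Among the 5 roles with more than 1 gene, the regulators had the widest gap between high fat groups on this centred scale, 0.32 ± 0.05 in HFD WT and -0.36 ± 0.20 in HFD KO (mean ± SD, n = 3). Desaturation and elongation stood at 0.02 ± 0.38 and -0.47 ± 0.24, and the mevalonate arm at 0.10 ± 0.06 and -0.17 ± 0.13. The squalene and sterol arm had the narrowest gap, 0.06 ± 0.02 and -0.08 ± 0.07. Fatty acid synthesis and its supply was close to it, at 0.03 ± 0.05 and -0.12 ± 0.25. That mean combines opposite changes: of its 7 genes, 3 had a positive and 4 a negative high fat fold change. edgeR called 2 of the 7 higher and 1 lower. In the squalene and sterol arm edgeR called Ebp alone of 11 genes, DESeq2 4 (Ebp, Dhcr7, Fdft1 and Cyp51). HFD KO 3 was the HFD KO library nearest to wild type for the regulators, and the heat map shows its paler colours.

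**Figure D4:**
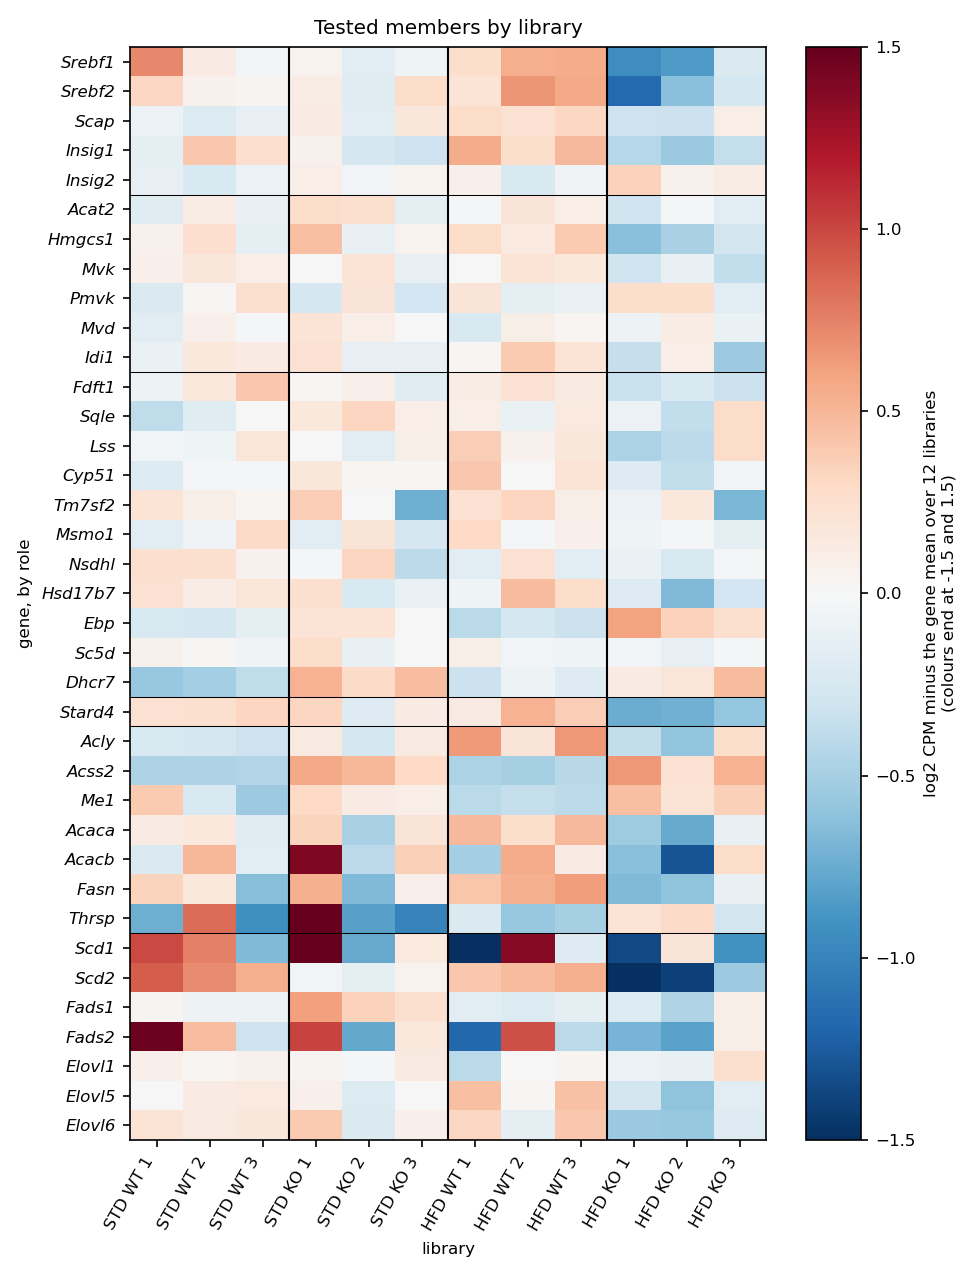
Log2 CPM minus each gene's mean over the 12 libraries (colour, ending at -1.5 and 1.5) for the 37 tested genes (rows, by role) in each library (columns). The 3 HFD KO columns are mostly below the mean in the regulators and in Scd2, and above it in Acss2, Ebp, Dhcr7 and Me1; the 3 STD KO columns are also above it in Acss2, Dhcr7 and Me1.

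The members with the widest spread between libraries of a group were Scd1, Thrsp, Fads2 and Acacb, all uncalled. Thrsp was at 49.1 CPM in STD KO 1 and at 1.91 to 6.78 CPM in the other 11 libraries. Scd1, the other main stearoyl-CoA desaturase, was at 210.4 CPM in STD KO 1 and at 8.10 to 91.3 CPM elsewhere. The coefficient of variation within groups averaged 80.5% for Scd1, 64.7% for Thrsp, 57.9% for Fads2 and 45.2% for Acacb. STD KO 1 was also the highest library for Acacb, at 8.04 CPM, whereas for Fads2 it was STD WT 1, at 37.4 CPM. The standard diet fold changes of Thrsp and Scd1, 2.27 and 0.82 on the log2 scale, turned to -0.85 and -0.76 without STD KO 1, and neither passed the threshold with or without it. The adipocyte marker sum, mostly Fabp4, was 18.2 to 21.2 CPM in STD KO, inside the 13.2 to 45.7 CPM of STD WT. Single markers differed from the sum. Car3 was at 10.7 CPM in STD KO 1, against 0.740 and 0.488 CPM in STD KO 2 and 3, and at 9.57 CPM in STD WT 2. Fabp4 was lower in STD KO 1 (9.38 CPM) than in STD KO 2 and 3 (17.4 and 15.5 CPM). Adipoq was at 0.206 CPM in STD KO 1 and 1.65 CPM in STD WT 2. The part of such cells in this spread was not tested.

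**Figure D5:**
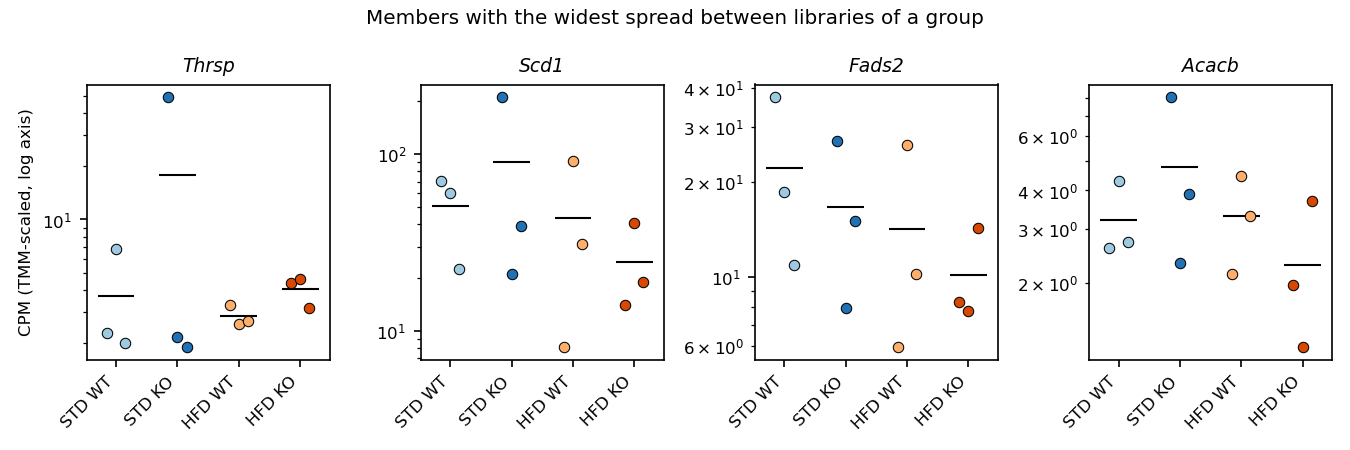
CPM (log axis) of Thrsp, Scd1, Fads2 and Acacb in each library (points) with group means (lines), by group on the x axis. STD KO 1 stands above all other libraries for Thrsp (49.1), Scd1 (210.4) and Acacb (8.04), while Fads2 is spread over every group.

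The genes that surround these pathways were read from 6 lists holding 60 genes. In HFD KO against HFD WT, 4 of the 60 rose and 2 fell, which is 10.0% and near the 7.4% of all genes called there, with a median of -0.07. None of the 8 genes that cleave SREBPs or turn over SCAP and INSIG passed (0 called, 1 at an unadjusted p under 0.05; DESeq2 called 1). Rnf145, a ubiquitin ligase that acts on SCAP, was the nearest (log2 fold change -0.63 ± 0.19 SE, adjusted p = 0.0699). Of 10 genes of LXR, sterol efflux, esterification and lysosomal release, 1 rose, Soat1, which esterifies cholesterol for storage, at 42.0 ± 2.57 CPM in HFD KO from 29.3 ± 2.0 CPM in HFD WT (mean ± SD, n = 3), with a log2 fold change of 0.52 ± 0.11 SE and an adjusted p = 0.0137. Soat1 also rose in STD KO (log2 fold change 0.85 ± 0.11 SE, adjusted p = 0.0018) and was the 1 gene of the 60 that passed there, which is 1.67%, against 1.71% of all genes. Among 7 genes of ChREBP and its response 1 fell and 1 rose. Of ChREBP itself, the glucose-responsive factor that shares lipogenic targets with SREBP-1, the gene Mlxipl fell to 43.6 ± 14.5 CPM in HFD KO from 86.6 ± 8.87 CPM in HFD WT (mean ± SD, n = 3), with a log2 fold change of -0.99 ± 0.22 SE and an adjusted p = 0.0213. Txnip, a ChREBP target, rose to 775 ± 174 CPM in HFD KO from 335 ± 50.4 CPM in HFD WT (mean ± SD, n = 3), with a log2 fold change of 1.21 ± 0.21 SE and an adjusted p = 0.00546.

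Reads were attributed to genes by the authors, and whether their counting used strand is not given. Fdft1, Cyp51, Acss2 and Srebf1 overlap antisense neighbours (Ctsb for Fdft1, Akap9 for Cyp51, Gss and Ggt7 for Acss2, Rai1 for Srebf1), so reads in the shared exons cannot be told apart. Fdps and Tm7sf2 overlap genes on the same strand, Gm43738 over 26.7% of the Fdps exon bases and Vps51 over 12.1% of those of Tm7sf2. Of the genes whose calls held without any 1 library, Acss2 shares 6.13% of its stretches with other genes, Srebf2 0.400%, Insig1 2.17%, Scd2 3.97% and Dhcr7 1.37%, and Ebp and Stard4 share 0.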

How the data were processed

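Islet RNA was sequenced in 12 libraries. The authors deposited read counts per gene and FPKM for each library; per the submitters' processing notes TopHat2, Cufflinks and DESeq were used with mm10. The counting tool, its annotation and its use of strand: not given in the sources used here. Deposited FPKM equalled count over length and total for all 254507 values compared (relative tolerance 1e-05), so they hold the same measurement. The 38 members and the pathway and marker lists were chosen with earlier results of these data known. All 38 members are named. Values by library are given for those past the threshold and the regulators, and of each list the genes past the threshold (up to 3), or else those with the smallest p, are named.

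Counts were filtered with filterByExpr (minimum count 10, minimum total 15; 16076 genes), scaled by TMM and tested with edgeR 4.0.16 (robust quasi-likelihood, R 4.3.3), with 1 mean per group over all 12 libraries. Adjustment was by Benjamini-Hochberg across all tested genes, threshold 0.05; fold changes carry edgeR's default prior count. Alternatives used DESeq2 1.42.0, limma 3.58.1 on log2(FPKM + 1) and log2(FPKM + 0.1), other filters, offsets and left-out libraries. Scripts were tested on simulated counts. No 2 libraries of a group agreed within sampling noise. With 3 libraries a group and a common coefficient of variation of 0.307, small differences were not detectable. In HFD KO and HFD WT, same-numbered libraries deviated together (r = 0.536, 0.431 and 0.367 over 14410 genes), each best with its own number. The labels do not say that these numbers mark pairs, and the reported fit does not pair the libraries. A fit with the replicate number as a block is given as an alternative only. Promoter sequences are RefSeq's, GRCm38.p6.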

Additional observations from a re-analysis of the deposited data

Results flagged for a closer look

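Cyp51, lanosterol demethylase, was the 1 member whose knockout libraries all lay above wild type under the standard diet and all below it under the high fat diet. It was at 40.3, 45.9 and 45.8 CPM in STD WT, 52.2, 47.2 and 46.9 CPM in STD KO, 61.5, 46.7 and 53.7 CPM in HFD WT, and 40.7, 35.8 and 45.3 CPM in HFD KO. The nearest libraries of the 2 genotypes lay close, at 45.9 and 46.9 CPM under the standard diet and 46.7 and 45.3 CPM under the high fat diet. The high fat difference did not pass in the reported edgeR fit (adjusted p = 0.0825). It did with DESeq2 (adjusted p = 0.0468) and with edgeR and the replicate block (adjusted p = 0.0391). The interaction of genotype and diet was -0.56 ± 0.19 SE on the log2 scale (edgeR's quasi-likelihood test, adjusted p = 0.621), so the difference between diets did not pass.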

How the results depend on the processing

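No member past the threshold changed sign under any alternative run. Uncalled members did, among them Thrsp, Scd1, Acacb and Fasn in STD KO against STD WT without STD KO 1. Thrsp and Scd1 went to -0.85 and -0.76, from 2.27 and 0.82. Acacb and Fasn went to -0.044 and -0.26, from 0.57 and 0.052. In that fit Thrsp also changed sign in HFD KO against STD KO, from negative to positive. Members lower in HFD KO against HFD WT, 8 in the reported fit, numbered 14 with DESeq2, 5 with limma on log2(FPKM + 1), 3 without STD WT 3 and HFD KO 2 together, and 4 to 14 over the 12 fits that left out 1 library (4 without HFD WT 3, HFD KO 1 or HFD KO 2, 5 without HFD WT 1, 14 without HFD KO 3); their higher count ranged from 2 to 3 over those fits and was 4 with DESeq2, with DESeq2 size factors and with the stricter filter. The median of that comparison was -0.29 without STD WT 3 and HFD KO 2, and -0.44 to -0.33 leaving out 1. In STD KO against STD WT members lower numbered 1 with DESeq2, 1 with only the 2 groups and 0 to 1 leaving out 1 library, and the median ran from -0.066 to 0.13. In HFD KO against STD KO they numbered 3 with DESeq2 and 0 to 4 leaving out 1 (4 without HFD KO 3), with medians of -0.42 and -0.44 on FPKM plus 1 and plus 0.1, and -0.34 to -0.17 leaving out 1. The interaction median was -0.57 on FPKM plus 0.1 and -0.57 to -0.31 leaving out 1. FPKM are not TMM-scaled: with 0.1 and 1 added they moved the median of all genes by 0.14 and 0.12 in STD KO against STD WT, by -0.18 and -0.14 in HFD KO against STD KO, and by -0.14 and -0.12 in the interaction.

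With the replicate block, HFD KO against HFD WT gained Scap, Cyp51, Acly and Elovl6 as lower and Dhcr7 as higher and lost Me1, giving 12 lower and 3 higher members; it changed no other member call. All genes called there numbered 1969 with the block, 2033 with DESeq2, 543 with only the 2 groups and 519 to 2899 leaving out 1 library, against 1189. In STD KO against STD WT they numbered 484 with DESeq2, 193 with the block and 146 to 296 leaving out 1, against 275. In the other comparisons replicates share only a number (correlations -0.239 to 0.008 in STD, -0.437 to -0.009 for diet in wild type, -0.111 to 0.212 for diet in knockout), and the block left 2 higher members in STD KO against STD WT. The cause of these shifts was not tested. With 16037709 to 20864920 counts a library, Fdps had 64 counts over all 12 libraries and fell below the count filter. The cause of its low count was not tested.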

Other observations

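Outside the synthesis genes, fatty acid activation showed changes in both directions in HFD KO against HFD WT. Of 13 genes of other acyl chain elongation and activation, 2 rose and 1 fell (edgeR's quasi-likelihood test, adjusted p under 0.05). This is 23.1%, against 7.4% of all genes tested (3.9% higher and 3.5% lower). The median log2 fold change of the 13 was 0.08. Acsl4, the acyl-CoA synthetase that prefers arachidonic acid, rose from 41.5 ± 1.89 CPM in HFD WT to 78.4 ± 17.9 CPM in HFD KO (on the log2 scale 0.92 ± 0.16 SE, adjusted p = 0.00483), and Acsl5 rose from 35.4 ± 1.68 to 55.6 ± 8.10 CPM (0.65 ± 0.13 SE, adjusted p = 0.00931; mean ± SD, n = 3). Acsl3, found on lipid droplets and endoplasmic reticulum, fell from 11.9 ± 1.21 to 6.40 ± 0.639 CPM (-0.90 ± 0.25 SE, adjusted p = 0.0492). All 3 were without overlap between the high fat groups. Of the 13, 3 lay higher and 1 lower without overlap, against 24.5% of all genes (11.2% higher and 13.3% lower). In STD KO against STD WT 0 of the 13 passed in edgeR (2 at an unadjusted p under 0.05, Acsl4 and Acsl5; DESeq2 called 1).

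None of 15 genes of glycerolipid synthesis and storage passed in HFD KO against HFD WT (0 called, 4 at an unadjusted p under 0.05; DESeq2 called 1), with a median of -0.25, and none of 7 genes of the isoprenoid branch did (0 called, 1 at an unadjusted p under 0.05; DESeq2 called 0), with a median of -0.01. Over all genes tested the median was -0.0024.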
